A study of Mus musculus with 564 samples.

Results

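Cxcl9, Cxcl10 and Cxcl11 are chemokine genes that lie side by side on mouse chromosome 5, Cxcl11 being a pseudogene in the reference strain. All 3 were followed here through the histone mark H3K27ac at the cis-regulatory elements (CREs) around them. A CRE was taken as a member when its centre lay within 25 kb of a RefSeq start of one of the 3 genes in the mm10 build, whatever its values, which gave 11 of the 59190 CREs measured. Counted by the nearest start, 4 belonged to Cxcl9, 2 to Cxcl10 and 5 to Cxcl11. H3K27ac, acetylation of lysine 27 of histone H3, marks active promoters and enhancers, and it reports on an element and not on the transcript of any gene.

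The series measured H3K27ac by ChIP-seq in bone marrow-derived macrophages (BMDMs), primary cells grown from the marrow of wild type mice, which the study's methods give as young adult male C57/BL6. Every culture was pre-treated for 1 h with a clinical kinase inhibitor (CKI), of which there were 58, or with the vehicle DMSO, and was later either left without stimulus (UT) or given 10 ng/mL of lipopolysaccharide (LPS) or interleukin 4 (IL-4) for 30 min, 1 h, 2 h or 4 h. DMSO accounts for 18 libraries in 9 groups of 2, and the CKIs for 546, in 474 groups of 1 and 36 groups of 2. Each CKI was used at a concentration taken from its potency, in a published binding assay, on 1 protein chosen for it. That protein need not be the kinase a CKI is known for, so the targets named below do not say what a CKI acted on at its dose. Doses differ between compounds, and no effect below is a comparison at matched dose.

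The chemokines CXCL9 and CXCL10 bind the receptor CXCR3, which is carried by activated T cells and natural killer cells and draws them to inflamed tissue. In macrophages LPS acts through TLR4, whose signal reaches NF-kB and IRF3, and IRF3 switches on interferon beta. Secreted interferon then acts back on the cells through receptor-bound JAK kinases, which activate STAT factors and IRF9, and these bind the interferon-stimulated response element (ISRE). IL-4 also signals through JAK kinases, but to STAT6. Cxcl10 is known as a gene that NF-kB and IRF factors as well as interferon can induce, and Cxcl9 as a gene that answers strongly to interferon gamma.

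All 3 genes lie on the minus strand, Cxcl11 farthest to the right in the reference, then Cxcl10, then Cxcl9. Cxcl9 spans chr5:92321331-92328079, Cxcl10 chr5:92346638-92348889 and Cxcl11 chr5:92359544-92363296. RefSeq lists Cxcl11 as a transcribed pseudogene in the reference strain, so its elements are described here as chromatin only. Elements are named by the distance of their centre from the nearest of the 3 starts, positive downstream in the direction of transcription. The gene Art3 lies on the opposite strand across Cxcl10 and Cxcl11, and no CRE covered the Cxcl9 start itself. The mark carries no strand, so signal over these elements cannot be assigned to one of the overlapping genes.

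The Cxcl10 +1.4 kb element, chr5:92344435-92350626, holds the Cxcl10 start and the gene, and the Cxcl10 -4.2 kb element, chr5:92351584-92354574, lies upstream of it in an intron of Art3. The Cxcl9 -3.9 kb element, chr5:92330519-92333438, is the one nearest to the Cxcl9 start and also holds a start of Art3. The Cxcl11 start element is chr5:92362472-92364204, and the Cxcl11 +4.4 kb element, chr5:92357595-92360280, overlaps an exon of Cxcl11. Upstream of Cxcl11 the -6.0 kb (chr5:92367239-92371360), -11.6 kb (chr5:92373458-92376377) and -18.7 kb (chr5:92381186-92382763) elements lie within Art3 and over no exon. Downstream of Cxcl9 the +9.7 kb (chr5:92317588-92319138) and +15.6 kb (chr5:92311673-92313299) elements are intergenic. The outermost, Cxcl9 +18.1 kb (chr5:92309157-92310846), holds the start of Sdad1, a gene unrelated to the chemokines.

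The promoter sequences of Cxcl9 and Cxcl10 in RefSeq, build GRCm38.p6 (mm10), are shown because they differ in the motifs of the 2 induction routes. Each runs from 250 bases before the start to 50 bases after it on the minus strand, chr5:92328030-92328329 for Cxcl9 and chr5:92348840-92349139 for Cxcl10. The capitals mark matches, on either strand, to the ISRE core GAAANNGAAA or the NF-kB motif GGGANNNNCC.
Cxcl9: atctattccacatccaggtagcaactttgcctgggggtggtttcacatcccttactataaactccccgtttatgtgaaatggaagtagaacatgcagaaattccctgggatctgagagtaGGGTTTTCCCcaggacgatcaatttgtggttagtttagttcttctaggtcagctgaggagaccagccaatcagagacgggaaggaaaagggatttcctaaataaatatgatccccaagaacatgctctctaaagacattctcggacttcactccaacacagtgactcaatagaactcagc
Cxcl10: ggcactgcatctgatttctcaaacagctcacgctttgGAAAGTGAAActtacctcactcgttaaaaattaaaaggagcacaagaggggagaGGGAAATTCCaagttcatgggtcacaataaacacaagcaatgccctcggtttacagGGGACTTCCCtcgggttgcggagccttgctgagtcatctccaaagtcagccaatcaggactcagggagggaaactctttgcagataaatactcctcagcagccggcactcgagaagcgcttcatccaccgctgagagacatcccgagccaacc
The Cxcl10 window held 1 ISRE core, at -213 from the start, and NF-kB matches at -159 and -103, and the Cxcl9 window held 1 NF-kB match, at -130, and no ISRE core. Of 32851 promoter windows of this length, 3.443% held the ISRE core and 20.73% the NF-kB motif.

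Over their whole width, 5 of the 11 elements held the ISRE core, at 6 places, against 25.31% of all CREs. The NF-kB motif was in 8 of the 11, against 57.9% of all CREs. The gamma-activated site TTCNNNGAA was in 5, against 45.35%, and the STAT6 site TTCNNNNGAA in 5, against 41.56%. The members are wider than most, up to 6192 bp against a median of 1652 bp, so they had more letters in which a match could fall. Of the ISRE core places 5 are given below with 10 bases on each side, in the direction of the motif, which is in capitals.
Cxcl9 -3.9 kb: ctttttaggaGAAATCGAAActtgctaact
Cxcl10 +1.4 kb: tcacgctttgGAAAGTGAAActtacctcac
Cxcl10 -4.2 kb: ctatgaagtgGAAACTGAAActaacttctg
Cxcl11 -6.0 kb, left: acgtggaccaGAAATGGAAActctaacatc
Cxcl11 -6.0 kb, right: cgcatgcaatGAAATGGAAAagcaattcca
They lie at chr5:92332497-92332526 (plus strand), chr5:92349083-92349112 (minus), chr5:92353545-92353574 (minus), chr5:92368523-92368552 (plus) and chr5:92371303-92371332 (plus). A match is a description of the letters and not evidence of binding.

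Values are normalized read counts per CRE that the authors scaled between libraries and rounded, and differences are on the log2(value + 5) scale, which understates the change of low elements. Across libraries the number of reads in CREs, estimated from the spacing of the values, ran from 2343274 to 5408907 in 16 of the 18 DMSO libraries and from 172729 to 6581857 in 535 of the 546 CKI libraries. Libraries also differed in contrast, the ratio of median values between the top 10% and the bottom 10% of CREs by mean level, which was 53.0 to 133.7 with DMSO and 3.34 to 67.2 with the CKIs. Of 6 macrophage markers 3 had a CRE within 1 kb of their start, and in UT cells these stood at 2082 ± 50.9 (Spi1), 636 ± 42.4 (Itgam) and 226 ± 11.3 (Mertk; SD, n = 2). With LPS at 30 min Itgam fell by 2.21 and Mertk by 2.30 on the log2 scale, and Spi1 was not called. Of 6 markers of other cell types, the only one with such a CRE was Col1a1, the fibroblast collagen gene, at 3.5. In a bulk assay a smaller share of cells carrying the mark and less of the mark per cell cannot be told apart.

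In DMSO-treated cells LPS raised H3K27ac around all 3 chemokine genes, from 30 min on and with the largest means at 2 h. At Cxcl10 +1.4 kb and the Cxcl11 start the 4 h and 2 h libraries overlapped. At the Cxcl10 +1.4 kb element the 2 UT replicates stood at 60 and 56. They stood at 645 and 691 after 30 min of LPS, 870 and 766 after 1 h, 1135 and 1304 after 2 h, and 1233 and 1090 after 4 h. Every LPS library lay far above both UT libraries already at the first time. The log2 difference from UT was 3.42 at 30 min (SE 0.115) and 4.28 at 2 h (SE 0.115, limma adjusted p = 1.1724e-25).

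The Cxcl9 -3.9 kb element moved more slowly and then fell back. It stood at 63 and 55 in UT cells, 157 and 177 at 30 min, 379 and 285 at 1 h, 1208 and 1150 at 2 h, and 568 and 510 at 4 h. The 4 h libraries lay below both 2 h libraries and above both 1 h libraries. Its difference from UT was 1.43 at 30 min and 4.21 at 2 h (SE 0.146), and from 2 h to 4 h it fell by 1.12 on the log2 scale (SE 0.146, limma adjusted p = 8.6269e-07).

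At the Cxcl11 start the UT replicates stood at 10 and 1, close to the bottom of the scale. They reached 56 and 42 at 30 min, 108 and 90 at 1 h, 264 and 263 at 2 h, and 276 and 224 at 4 h. Every LPS library from 30 min on lay above both UT libraries, and the log2 difference from UT was 4.82 at 2 h (SE 0.276). The fold at this element rests on a UT level that the pseudocount of 5 largely sets.

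Upstream of Cxcl11, the -6.0 kb element also rose within 30 min. It stood at 184 and 202 in UT cells and at 878 and 937 after 30 min, 1222 and 1080 after 1 h, 2167 and 2125 after 2 h, and 1741 and 1597 after 4 h of LPS. At Cxcl11 -6.0 kb the difference from UT was 2.21 at 30 min and 3.44 at 2 h (SE 0.0949). At 2 h the other upstream elements were higher than UT by 3.5 (Cxcl10 -4.2 kb), 1.86 (Cxcl11 -11.6 kb) and 3.78 (Cxcl11 -18.7 kb), and Cxcl11 +4.4 kb by 4.35.

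**Figure D1:**
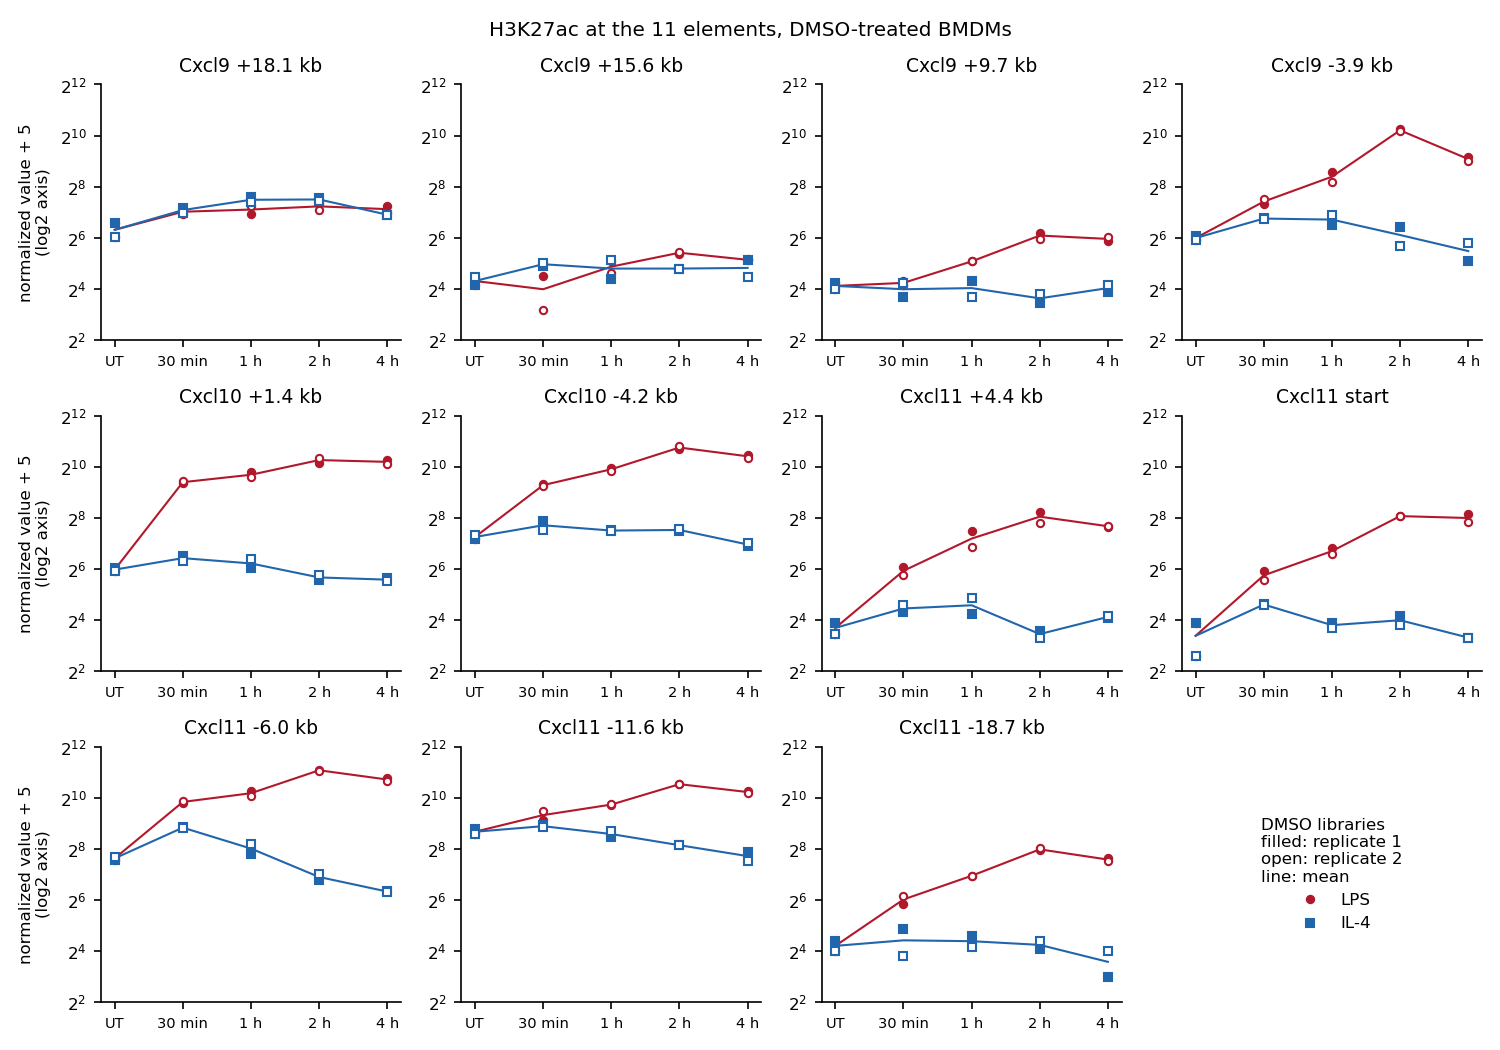
H3K27ac at each of the 11 elements in DMSO-treated BMDMs, as the normalized value plus 5 on a log2 axis against time, with LPS in red, IL-4 in blue, replicates as filled and open symbols and the mean as a line. The LPS lines peak at 2 h in every panel, while most IL-4 lines stay near UT and that of Cxcl11 -6.0 kb rises at 30 min and then falls below it.

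Over the whole LPS time course, 10 of the 11 elements were called, all higher (moderated F-test, adjusted p under 0.01 and a log2 difference over 1 at some time), where 29% of the 50697 CREs tested were called higher and 24.6% lower. All 11 passed the filter on low values, and in all 11 the largest mean was at 2 h. The element not called was Cxcl9 +18.1 kb, the Sdad1 promoter, at 0.93 (SE 0.205). Cxcl9 +15.6 kb was called at 1.11 (SE 0.371), but at values of 37 and 39 against 13 and 17, and the call was lost with a pseudocount of 20, under quantile normalization, and without LPS 30 min replicate 2 or UT replicate 1.

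The steps between neighbouring times showed where each element stopped rising. From UT to 30 min, 9 elements rose (27.7% of CREs did), from 30 min to 1 h again 9 (15.9%), from 1 h to 2 h again 9 (12.6%), and from 2 h to 4 h none rose and 4 fell (5.99%). Those 4 were Cxcl9 -3.9 kb, Cxcl10 -4.2 kb, Cxcl11 -6.0 kb and Cxcl11 -11.6 kb. Cxcl10 +1.4 kb gained 0.29 between 30 min and 1 h (limma adjusted p = 0.059), after most of its rise was already in place. Whether 2 elements differed in their kinetics was not tested.

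With IL-4 the elements nearest the starts moved far less than with LPS, and none was called over the time course. At Cxcl10 +1.4 kb the replicates stood at 87 and 75 after 30 min of IL-4, 60 and 79 after 1 h, 43 and 49 after 2 h, and 45 and 41 after 4 h, against 60 and 56 in UT cells. The largest difference was 0.45 (SE 0.229, limma adjusted p = 0.13). Cxcl9 -3.9 kb stood at 104 and 103 after 30 min and at 29 and 51 after 4 h, on either side of its UT values of 63 and 55, with differences of 0.76 (limma adjusted p = 0.0098436) and -0.55 and no call. The Cxcl11 start stood at 20 and 19 after 30 min, 10 and 8 after 1 h, 13 and 9 after 2 h, and 5 and 5 after 4 h, against 10 and 1 in UT cells. Its difference of 1.37 at 30 min (SE 0.408, limma adjusted p = 0.0067167) was not called over the time course, but was in a fit of all 18 DMSO libraries (1.37) and without UT replicate 1 (2.03).

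Farther upstream, IL-4 moved the Cxcl11 -6.0 kb element in both directions. It stood at 456 and 444 after 30 min, 217 and 289 after 1 h, 105 and 124 after 2 h, and 76 and 75 after 4 h, against 184 and 202 in UT cells. At 30 min both libraries lay above UT, and at 2 h and 4 h all lay below. The difference was 1.20 at 30 min (SE 0.147, limma adjusted p = 2.441e-09) and -1.30 at 4 h (SE 0.147, limma adjusted p = 2.8309e-10). Its neighbour at -11.6 kb fell by 0.96 on the log2 scale at 4 h (SE 0.12, limma adjusted p = 4.3044e-09), below the size needed for a call, and was called without IL4 4 h replicate 1 (-1.15) or UT replicate 2 (-1.06).

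In the IL-4 time course 2 of the 11 elements were called, Cxcl11 -6.0 kb as lower and Cxcl9 +18.1 kb as higher (1.21 at 2 h, SE 0.171), where 11% of the 47018 CREs tested were called lower and 13.6% higher. The call at Cxcl9 +18.1 kb was lost without UT replicate 2, at 0.94. From UT to 30 min of IL-4, 5 elements rose (21.8% of CREs did), namely Cxcl9 +18.1 kb, Cxcl9 -3.9 kb, Cxcl10 -4.2 kb, the Cxcl11 start and Cxcl11 -6.0 kb, and from 2 h to 4 h 4 fell (4.32%).

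**Figure D2:**
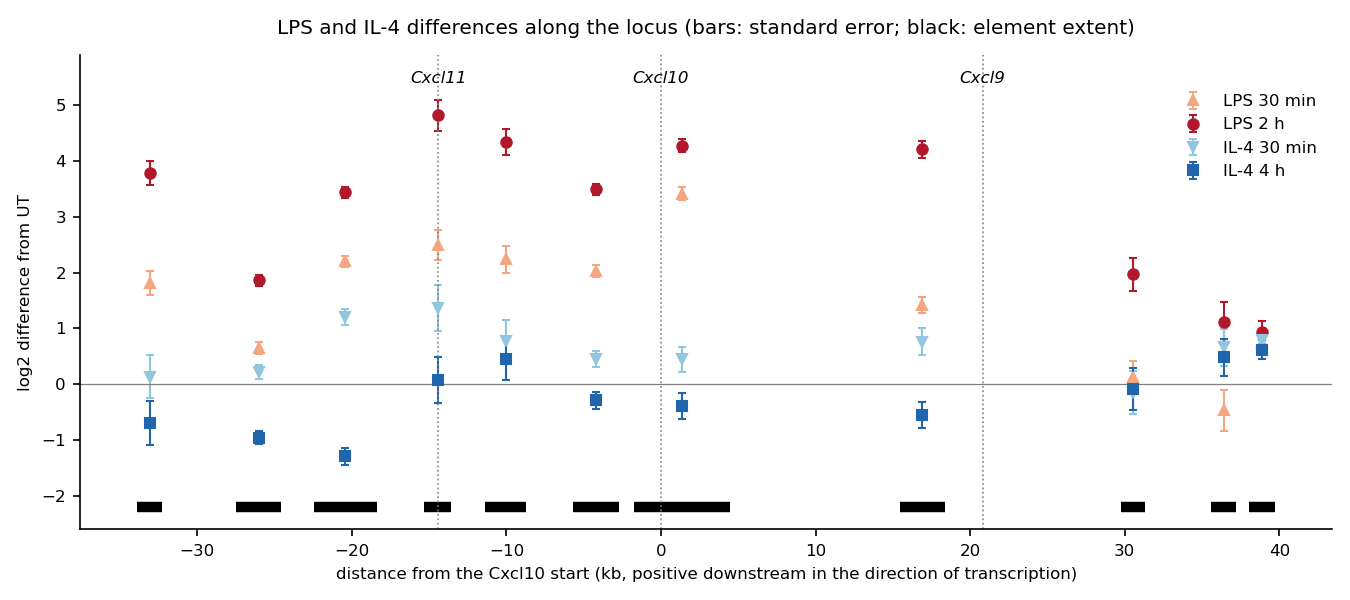
Log2 difference from UT in DMSO-treated BMDMs with its standard error at each element, after 30 min and 2 h of LPS and 30 min and 4 h of IL-4, plotted against distance from the Cxcl10 start in kb, with bars at the bottom for the elements and dotted lines for the 3 starts. The LPS differences at 2 h run from 0.93 at Cxcl9 +18.1 kb to 4.82 at the Cxcl11 start, and the lowest IL-4 difference at 4 h is -1.30, at Cxcl11 -6.0 kb.

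Set directly against each other at the same times, LPS and IL-4 differed at 9 of the 11 elements, all higher with LPS, where 29.2% of the 50587 CREs tested were called higher and as many lower. Cxcl10 +1.4 kb differed by 2.97 at 30 min and by 4.60 at 4 h (SE 0.153). Cxcl11 -6.0 kb differed by 1.00 at 30 min and 4.38 at 4 h (SE 0.119), and Cxcl9 -3.9 kb by 0.66 at 30 min and 4.14 at 2 h (SE 0.204). The outer elements Cxcl9 +15.6 kb and +18.1 kb were not called.

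The promoters of the surrounding pathway were read from CREs within 1 kb of each gene's start. Ifnb1, which encodes interferon beta, rose by 3.67 at 1 h of LPS (SE 0.169), from 30.5 ± 0.71 to 447.5 ± 34.6 (SD, n = 2). Of 15 interferon targets 14 had a tested CRE and all 14 rose, with a median of 2.13 and a range from 1.49 to 2.87. Ifit1, an antiviral RNA-binding protein, was the highest of these, and Gbp5, a guanylate-binding protein, reached 2.73. With IL-4 none of the 14 was called by limma: 5 passed the F-test alone, but their differences stayed within -0.53 and 0.77.

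Among the kinases of the pathway 3 of 4 tested rose with LPS, Jak2 by 2.73, Tyk2 by 1.56 and the IRF3 kinase Tbk1 by 1.35. Among the transcription factors Irf1 rose by 1.72 and Irf7 by 2.10. Among the receptors none rose and 2 of 5 fell, Ifngr1 by 1.06 and Cxcr3, the receptor of the chemokines, by 2.36. Of 10 NF-kB targets only 3 had a tested CRE within 1 kb, and these (Tnfaip3, Cxcl1 and Ptgs2) rose. With IL-4, Jak2 (1.22), Irf7 (1.08) and Tnfaip3 (1.15) were called higher.

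Over the 9 DMSO groups, the promoters whose group means followed Cxcl10 +1.4 kb most closely, among 10109, were those of Slc2a6 (r = 0.993), Casp4 (0.991), Ptgs2 (0.99), Slfn2 (0.989) and Helz2 (0.988). For the Cxcl11 start they were Rnase10 (0.995), Ifi205 (0.991), Gbp5 (0.989), Rtn2 (0.988) and Dync1i2 (0.986). For Cxcl9 -3.9 kb they were Dync1i2 and Zc3hav1 (both 0.989), Rictor (0.984), Mlkl (0.982) and Ubr4 (0.978). These are descriptions over 9 means, in which any promoter that rose with LPS and not with IL-4 scores high.

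With each CKI the LPS rise at the chemokine starts was still present. Taking the mean of the 2 h and 4 h libraries as late LPS, all 57 CKIs with such a library were higher than their own UT at 8 of the 11 elements, and at least 52 of 57 at the other 3, which are the low or outer ones downstream of Cxcl9. The rise at Cxcl10 +1.4 kb ran from 1.28 (AMG208) to 3.72, with a median of 2.67, against 4.24 with DMSO. At Cxcl9 -3.9 kb the median was 2.66 against 3.65, and at the Cxcl11 start 2.83 against 4.78. UT levels were also higher with the CKIs: at Cxcl10 +1.4 kb 59 to 256 with a median of 108, against 60 and 56 with DMSO.

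The fall at Cxcl9 -3.9 kb after 2 h was also seen with the CKIs, where the 4 h value was below the 2 h value in 49 of 53 CKIs with both times, by a median of 0.50. At Cxcl10 +1.4 kb the 4 h value was the higher one in 38 of the 53, and at the Cxcl11 start in 37. After IL-4, 0 of 58 CKIs stood above their UT at Cxcl11 -6.0 kb late, with a median difference of -0.94.

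**Figure D3:**
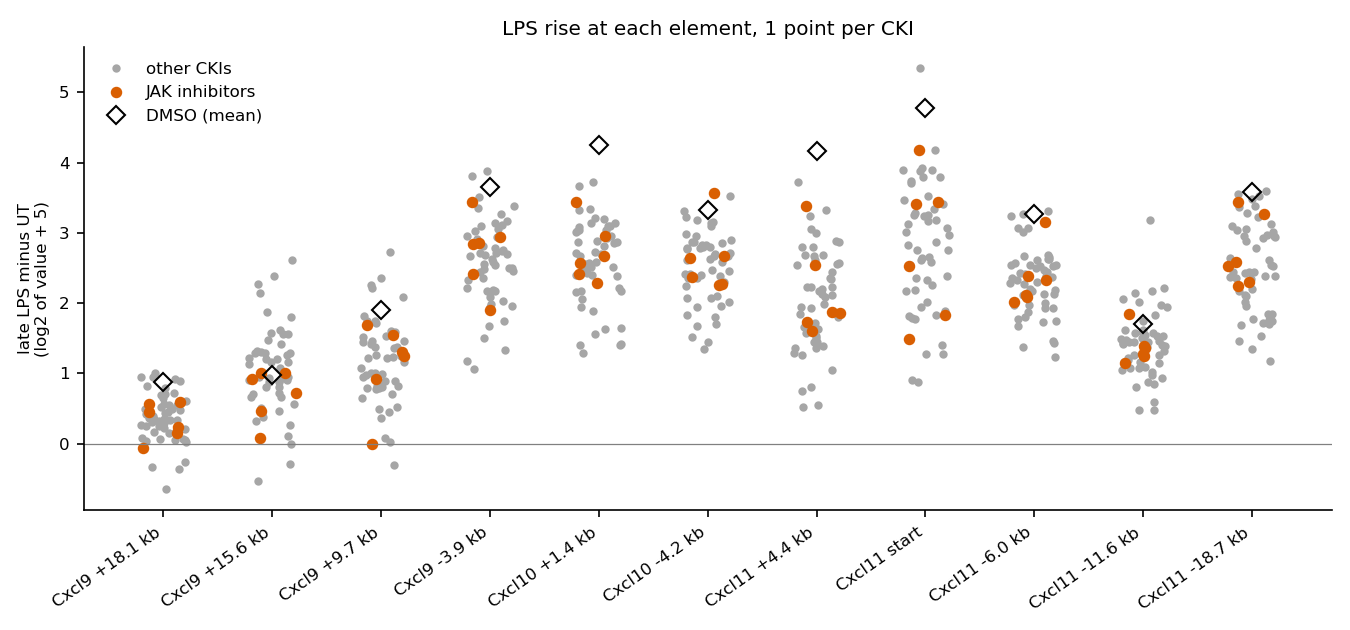
Late LPS minus UT at each element on the log2(value + 5) scale, with 1 point for each of 57 CKIs, JAK inhibitors in orange and the DMSO mean as an open diamond. The DMSO diamond at Cxcl10 +1.4 kb lies at 4.24, above all CKIs, of which the highest is at 3.72, and the JAK inhibitors lie within the spread of the others.

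Against DMSO late after LPS, 195 of the 627 pairs of an element and a CKI were called lower (31.1%) and 3 higher, where 3.89% of all pairs tested were called lower and 13% higher (adjusted p under 0.05 within a CKI and a log2 difference over 0.5). Most of the lower calls fell on 6 elements, with 41 CKIs lower at Cxcl11 -6.0 kb, 38 at Cxcl10 -4.2 kb, 34 at Cxcl10 +1.4 kb, 31 at Cxcl11 -11.6 kb, 21 at Cxcl9 -3.9 kb and 18 at the Cxcl11 start. DMSO stood at 1135 and 1304 at Cxcl10 +1.4 kb after 2 h, and the 55 CKIs at that time between 400 and 1167 with a median of 699. At 4 h DMSO stood at 1233 and 1090, and 55 CKIs between 480 and 1137 with a median of 841.

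Contrast moved with this difference. The late LPS libraries of DMSO had contrasts of 57.8 to 73.8, and in the column order of the table the CKIs fall into 6 runs that share no compound, with median contrasts of 9.13, 19.9, 14.7, 34.6, 17.8 and 12.5. DMSO lies outside every run, so run and DMSO cannot be told apart. With contrast as a covariate 6 pairs were called in place of 198, 5 of them lower. Late LPS contrasts of the CKIs reached at most 50.25 and did not overlap those of DMSO. In that fit contrast and a difference between CKIs and DMSO cannot be told apart. Each CKI was therefore also set against the other CKIs of its run.

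Within runs, 15 of the 627 pairs were called lower (2.39%) and 2 higher (0.319%), where 0.654% of all pairs were called lower and 1.46% higher. The calls lay with 6 CKIs. PH797804, a p38 inhibitor, was lower at 5 elements and higher at 2. At Cxcl10 +1.4 kb it stood at 538 after 2 h and 549 after 4 h, below all 9 others of its run, whose medians were 974 and 1027. The difference was -0.83 (SE 0.181, limma adjusted p = 0.00010066), and at Cxcl11 -6.0 kb it was -1.24 (SE 0.185, limma adjusted p = 2.3231e-07).

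These 2 libraries of PH797804 had the lowest contrasts of their run, 4.81 and 3.37, against medians of 33.4 and 43.8 among the others, and 51.8% of all CREs were called higher and 9.42% lower for this CKI. With contrast as a covariate its only member called was Cxcl11 -11.6 kb, at -0.85. VX702, another p38 inhibitor of the same run, stood at 936 and 1062 at Cxcl10 +1.4 kb (difference 0.14), and Talmapimod, a p38 inhibitor of another run, at 1115 and 900 (difference 0.26). Losmapimod, also aimed at p38, has only the 4 h library late after LPS, with 480 at Cxcl10 +1.4 kb against 703 to 900 in its run. Its contrast was the lowest there, 4.37, and its difference of -0.67 (SE 0.251) was not called in the main fit. That call depended on the processing. Losmapimod was called at Cxcl10 +1.4 kb with libraries scaled to the same total (-1.002) and without the second libraries of CKIs (-0.674). At this element it was not called under quantile normalization or with contrast as a covariate. Under quantile normalization it was called at the Cxcl11 start (-1.369). All these values rest on 1 library.

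Lenvatinib, an inhibitor of VEGF receptors, was lower at Cxcl10 +1.4 kb (603 and 493, against run medians of 888 and 900), at -0.72 (SE 0.183, limma adjusted p = 0.013405), where 2.35% of all CREs were called lower for it. It was also lower at Cxcl10 -4.2 kb and at Cxcl11 -6.0 kb, and its 4 h library had the lowest contrast of its run, 4.29. With contrast as a covariate none of its 3 calls was left.

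Of the other calls, those of Pacritinib are given with the JAK inhibitors below, and the rest lay with AZD2014, known as an mTOR inhibitor, and PF04691502 and BGT226, known as inhibitors of both PI3K and mTOR. At this study's doses AZD2014 was set on PFKP and PF04691502 on CSNK2A2. AZD2014, with 5.11% of all CREs called lower, was lower at Cxcl9 -3.9 kb, with 387 after 2 h and 163 after 4 h against run medians of 520 and 409, at -0.79 (SE 0.212, limma adjusted p = 0.012252). Its 4 h value was below all 9 others of the run, and Cxcl9 +18.1 kb and Cxcl11 +4.4 kb were called lower as well, while Cxcl10 +1.4 kb differed by -0.23 with no call. PF04691502 (1.26% of all CREs lower) was lower at the Cxcl11 start, with 139 and 77 against run medians of 210 and 240, at -0.94 (SE 0.244, limma adjusted p = 0.02527). BGT226 (2.32% of all CREs lower) was lower at Cxcl9 +18.1 kb, and at the Cxcl11 start it differed by -0.63 (SE 0.242) with no call. The calls of AZD2014, PF04691502 and BGT226 held with contrast as a covariate, under which BGT226 was also called at the Cxcl11 start. Under quantile normalization AZD2014 was no longer called at Cxcl9 -3.9 kb, and PF04691502 and BGT226 gave no call. With libraries scaled to the same total AZD2014 at Cxcl9 -3.9 kb and PF04691502 were again not called. In the run comparison Omipalisib and Apitolisib, also known as inhibitors of PI3K and mTOR though Apitolisib was dosed here on JAK1, gave no call at these elements (-0.23 and 0.09 at the Cxcl11 start for Omipalisib and Apitolisib).

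At the upper end no CKI was called at the elements nearest the starts. The highest was MK2461, an inhibitor of MET, at Cxcl9 -3.9 kb (0.42, SE 0.215), MK2206, an inhibitor of AKT with only its 2 h library, at Cxcl10 +1.4 kb (0.37, SE 0.251), and Vatalanib, an inhibitor of VEGF receptors, at the Cxcl11 start (0.67, SE 0.24). TG100572, dosed here on the JAK family kinase TYK2, differed by -0.09, 0.09 and 0.07 at these 3 elements. Midostaurin, known as an inhibitor of FLT3 but dosed here on the IRF3 kinase TBK1, stood at 806 after 2 h and 709 after 4 h at Cxcl10 +1.4 kb, within the range of its run.

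**Figure D4:**
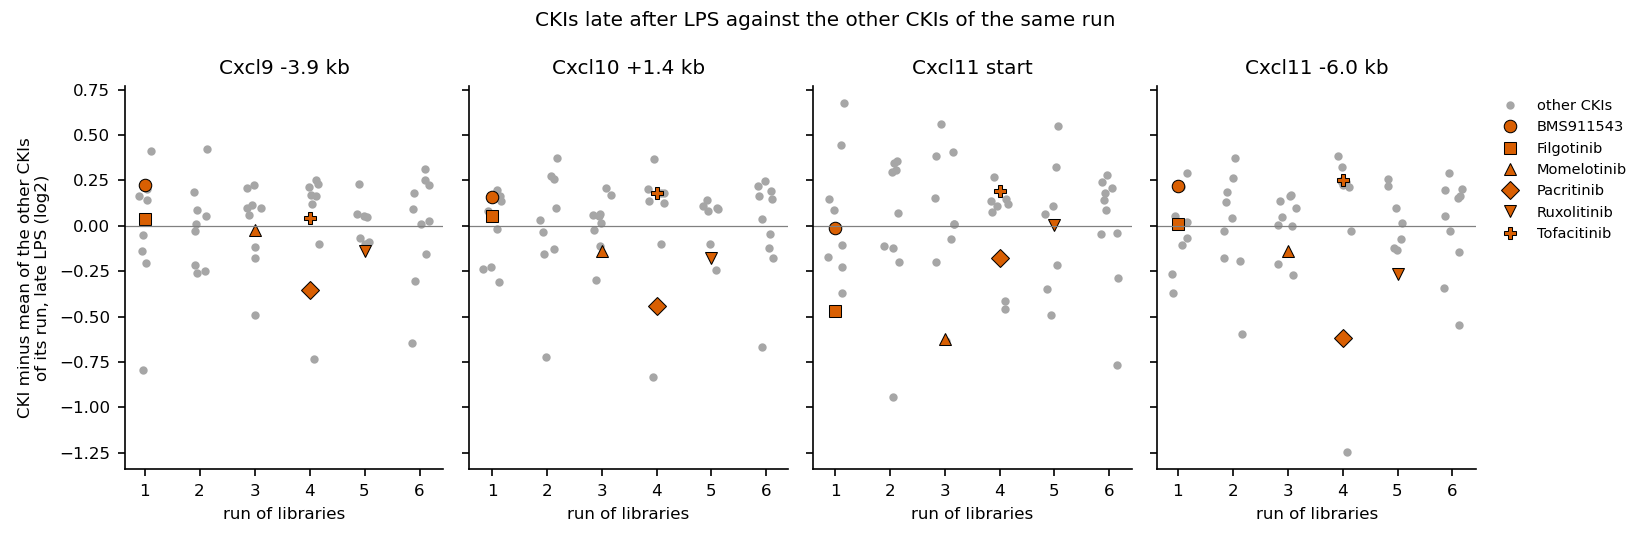
Fitted difference of each CKI from the mean of the other CKIs of its run late after LPS (log2), by run, at 4 elements, with the 6 JAK inhibitors as orange symbols. The lowest point at Cxcl10 +1.4 kb is PH797804 in run 4 at -0.83, the lowest at the Cxcl11 start is PF04691502 in run 2 at -0.94, and Pacritinib is the lowest JAK inhibitor at Cxcl11 -6.0 kb, at -0.62.

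JAK inhibitors act on the kinases through which secreted interferon would reach these elements, so the comparison of interest was whether they lowered the late LPS signal more than other CKIs did. The 6 are BMS911543 and Filgotinib (run 1), Momelotinib (run 3), Pacritinib and Tofacitinib (run 4) and Ruxolitinib (run 5), each with 1 library at each LPS time. Their doses were not all set on a JAK kinase: Ruxolitinib was dosed on JAK2 and Pacritinib on TYK2, but Momelotinib on IKBKE, BMS911543 on NQO2 and Filgotinib on IRAK1. The dose target of Tofacitinib is not given here, and the paper reports that the binding assay linked it to no JAK kinase. At Cxcl10 +1.4 kb after 2 h and 4 h of LPS, BMS911543 stood at 612 and 775 and Filgotinib at 637 and 655, and the others of their run had medians of 598 and 708 to 722. Momelotinib stood at 581 and 771, where the medians of the others of its run were 658.5 and 883. Pacritinib stood at 744 and 648 and Tofacitinib at 974 and 1075, where the others of their run had medians of 942 to 974 and 1015 to 1027, and Ruxolitinib stood at 675 and 637, where they were 703 and 850.

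Over all 6, no member was called lower or higher than with the 51 other CKIs, with run as a term (0 of 11, limma adjusted p under 0.05 and a log2 difference over 0.5), where 0.00169% of 59169 CREs were called lower and as many higher. The difference at Cxcl10 +1.4 kb was -0.07, with a 95% interval from -0.28 to 0.15. It was -0.04 at Cxcl9 -3.9 kb (-0.25 to 0.18), -0.10 at Cxcl11 -6.0 kb (-0.34 to 0.15) and -0.20 at the Cxcl11 start (-0.46 to 0.06), which was the largest. All 11 differences were below 0, with a median of -0.04 beside 0.07 over all CREs tested. The smallest unadjusted limma p among the members was 0.131. The 51 other CKIs include Apitolisib, TG100572 and Midostaurin, whose doses were set on kinases of the same pathway. Without these 3, the count of members called stayed at 0 in this and the other JAK comparisons, and the differences late after LPS were -0.06 at Cxcl10 +1.4 kb and -0.20 at the Cxcl11 start.

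Relative to the other CKIs, the intervals at the starts exclude a loss of 0.5 or more on the log2 scale. They do not exclude smaller losses. This comparison cannot bound a loss from DMSO, since the other CKIs also lay below DMSO at these elements. In simulated data 187 of 200 CREs lowered by 1.5-fold were recovered, counted by the limma adjusted p alone. The simulation had runs, but the same spread at every CRE and no differences in contrast. Its recovery therefore does not carry over to these libraries. Of the interferon targets 14 were tested by limma and 0 called, with differences from -0.14 to -0.04 and 0 at an unadjusted p under 0.05. In the other JAK comparisons 0 of the 14 were called as well, with 2 at an unadjusted p under 0.05 early after LPS (Cmpk2 at -0.36 and Ifit1 at -0.32), 0 for the change from early to late, 3 late after IL-4 (Ifit3 at -0.39, Gbp2 at -0.29 and Usp18 at -0.19) and 1 in UT cells (Isg15 at -0.24).

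The members likewise gave no call for JAK inhibitors early after LPS (30 min and 1 h), where 0% of CREs were called and the differences ran from -0.12 to 0.26. The change from early to late LPS differed by -0.35 to 0.08 with no call, where 0% of 59168 CREs were called. In UT cells the differences ran from -0.39 (Cxcl11 start) to 0.28 (Cxcl9 +15.6 kb), again with no call. There 0% of 59096 CREs were called. Late after IL-4 they ran from -0.16 to 0.17 with no call, where 0% of 59145 CREs were called. The highest was Cxcl11 -11.6 kb, where all 6 JAK inhibitors lay above the mean of their run (0.17, interval -0.03 to 0.36). In none of these comparisons did a member reach an unadjusted limma p under 0.05. Since no CRE at all was called in them, the lack of calls does not set the members apart.

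**Figure D5:**
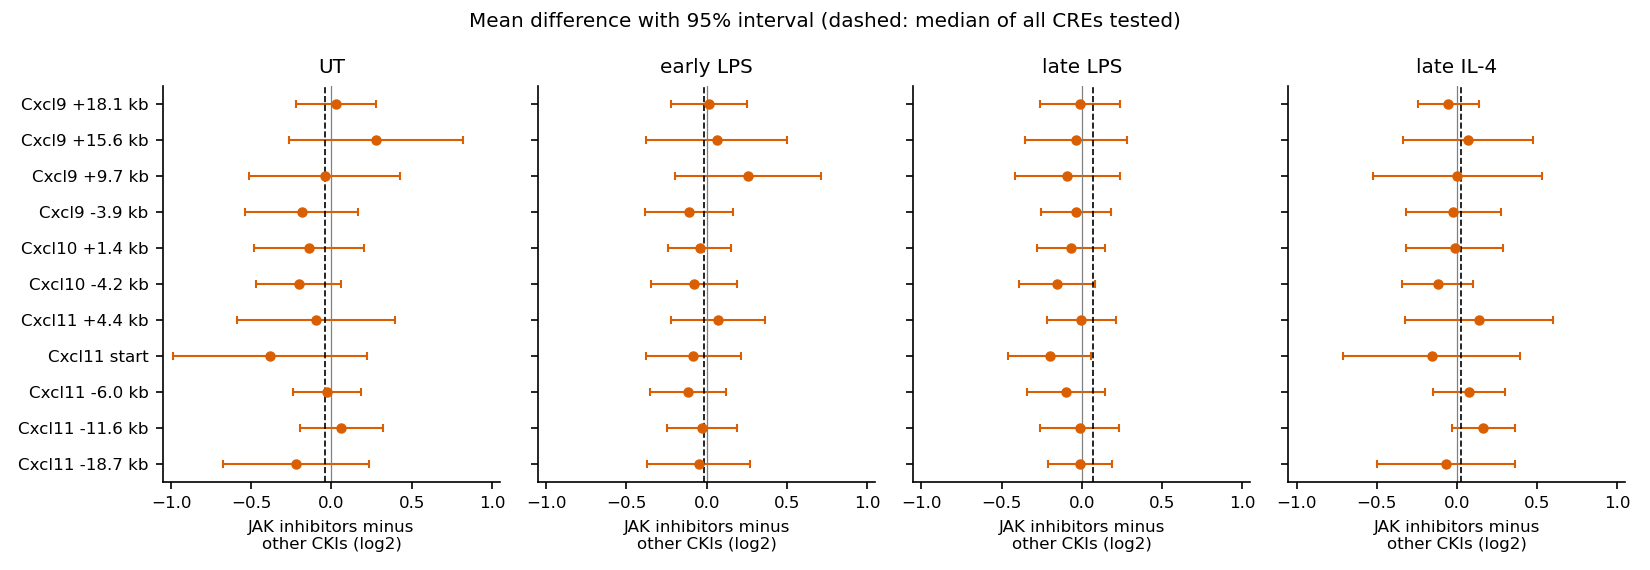
Mean of the 6 JAK inhibitors minus that of the other CKIs, with run as a term, at each element in UT cells, early after LPS, late after LPS and late after IL-4, with 95% intervals and the median of all CREs tested as a dashed line. Every interval crosses 0, and late after LPS the points run from -0.20 at the Cxcl11 start to 0.00 at Cxcl11 +4.4 kb.

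Taken singly, the JAK inhibitors gave different calls, and no test compared them with each other. Against its run, Pacritinib, with 1.93% of all CREs called lower, was lower at Cxcl11 -6.0 kb, with 1263 after 2 h and 689 after 4 h where the others had medians of 1668 and 1502 (-0.62, SE 0.185, limma adjusted p = 0.024523), and at Cxcl11 -11.6 kb (-0.53, limma adjusted p = 0.04573). Its libraries had contrasts of 10.8 and 5.66, against medians of 33.4 and 43.8 in the run, and both calls were lost with contrast as a covariate. With libraries scaled to the same total it had 4 calls, Cxcl10 +1.4 kb (-0.53) and Cxcl10 -4.2 kb among them. The other 5 gave no call against their runs. BMS911543 at Cxcl9 +9.7 kb, at -0.96 (SE 0.303, limma adjusted p = 0.071861), was called with a pseudocount of 1, with libraries scaled to the same total (-0.99) and without the second libraries of CKIs (-0.99).

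Tofacitinib gave 0 calls among the members also against DMSO, in a fit where 0% of all CREs were called lower for it. The other 5 gave 5 to 7 each, all lower, where the share of all CREs called lower was 8.29% for BMS911543, 6.29% for Filgotinib, 4.3% for Momelotinib, 4.7% for Pacritinib and 3.71% for Ruxolitinib. The differences of Tofacitinib from DMSO ran from -0.34 to 0.25. Its LPS libraries at 2 h and 4 h had contrasts of 35 and 27.6, the highest among the JAK inhibitors at both times. After 2 h Tofacitinib stood above all 9 others of its run at the Cxcl11 start (232, others 133.5 to 224). Pacritinib and Tofacitinib fall into the same run by column order, but their doses were set for different potencies, so their values stand side by side only.

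Ruxolitinib after 4 h of LPS stood below all 7 others of its run at Cxcl9 -3.9 kb (420, others 459 to 519), Cxcl10 +1.4 kb (637, others 714 to 869) and Cxcl11 -6.0 kb (888, others 913 to 1263), and its contrast of 11.5 was also the lowest. After 2 h it lay within their range at all 3. Filgotinib and Momelotinib were the lowest of their runs after 2 h of LPS at the Cxcl11 start, with 59 (others 72 to 165) and 79 (others 80 to 210), and after 4 h both lay within the range of the others, at 114 and 117. These placements were chosen after the values were seen, and none of the 3 CKIs was called at these elements.

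Among the 57 CKIs, late LPS deviations from the run mean moved together at the Cxcl10 elements and those at -6.0 and -11.6 kb from the Cxcl11 start. Pearson's r was 0.901 between Cxcl11 -6.0 kb and Cxcl11 -11.6 kb, 0.892 between Cxcl10 -4.2 kb and Cxcl11 -6.0 kb, 0.872 between Cxcl10 +1.4 kb and Cxcl11 -6.0 kb, and 0.660 between Cxcl9 -3.9 kb and Cxcl10 +1.4 kb. The Cxcl11 start followed less closely, with 0.424 against Cxcl10 +1.4 kb and 0.409 against Cxcl9 -3.9 kb. The median over the 55 pairs of elements was 0.262, and the points share libraries, depth and contrast, so these are descriptions.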

How the data were processed

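Adapters were removed and single-end reads trimmed by the authors, who mapped them to mm10 with ShortStack (the labels also name Bowtie and SAMtools), counted reads around ATAC-seq summits and scaled each library by peaks that did not vary. The deposited values are normalized counts rounded by the authors to whole numbers and were treated as a score, so no count model was applied. Depth was estimated from the spacing of each library's values, which worked for 551 of 564 libraries.

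Groups came from the treatment labels. UT is labelled as 4 h without stimulus and titled time 0. Nothing says whether replicates, or second libraries of a CKI (suffix b), come from separate cultures, so p-values measure the spread between these libraries, which may be technical. The replicate numbers did not pair the DMSO libraries: correlations of same-numbered deviations ran from -0.0873 to 0.0664 over 36 pairs of groups.

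Differences were fitted with limma 3.58.1 in R 4.3.3 on log2(value + 5), for CREs with a mean of at least 10, with Benjamini-Hochberg adjustment over all CREs tested. DMSO calls needed an adjusted p under 0.01 (F-test) and a log2 difference over 1, CKI calls an adjusted p under 0.05 and a log2 difference over 0.5. A CKI was fitted over 2 h and 4 h with time as a term, its spread taken from all compounds. Runs were defined from column order, since no label names a batch, and were used only in place of a technical batch. The members, lists, motifs and named CKIs were chosen with earlier results of these data known. The CKIs named are the 6 JAK inhibitors, Midostaurin, Apitolisib, TG100572 and those from the 3 highest and 3 lowest at the element nearest each start, and VX702, Talmapimod and Omipalisib were added after their values were seen. The fits were tested on simulated data, where 165 of 200 CREs changed by 4-fold were recovered in the DMSO time course. Alternatives covered the pseudocount, filter, thresholds, normalization, contrast, run, replicate block and each replicate left out. One listed factor and one matched sequence are not reported here.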

Additional observations from a re-analysis of the deposited data

Results flagged for a closer look

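For each element the 6 JAK inhibitors were searched for 1 that stood far from the other 5, by the gap to its nearest neighbour as a share of the range, late after LPS and late after IL-4. Of 22 such groups 3 had one, and chance gives about 1 in 20. Late after LPS, BMS911543 at Cxcl9 +9.7 kb stood at -0.96 from its run, while the others stood between -0.0196 and 0.191 (share 0.817). Late after IL-4, Filgotinib at the same element stood at -0.511, with the others between 0.036 and 0.16 (share 0.815). Also after IL-4, Tofacitinib at Cxcl11 +4.4 kb stood at -0.642, with the others between 0.092 and 0.52 (share 0.632). Both elements lie low on the scale without LPS. BMS911543 at Cxcl9 +9.7 kb was not called against its run in the main fit. It was called under 3 alternatives: a pseudocount of 1, libraries scaled to the same total, and without the second libraries of CKIs. The IL-4 values of Filgotinib and Tofacitinib were not tested singly against their runs.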

How the results depend on the processing

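The counts of members called in the DMSO time courses stayed within 1.5 times under all alternatives but 1: with a log2 threshold of 0.5, 4 elements were called for IL-4 in place of 2. Leaving out single replicates gave 9 to 11 elements for LPS, 2 to 3 for IL-4 and 9 to 10 for LPS against IL-4. The replicate block (a paired fit on the replicate numbers) left these counts at 10, 2 and 9, and every JAK comparison stayed at 0 under every alternative. The pairs called late after LPS depended on the processing. Against DMSO, 198 pairs became 39 under quantile normalization, 6 with contrast as a covariate, 75 at a log2 threshold of 1, and 126 to 130 without either DMSO replicate. Against the run, 17 pairs became 7 under quantile normalization, 7 with contrast as a covariate and 4 at a log2 threshold of 1. A stricter threshold admits fewer pairs by construction; for the other settings the cause was not tested. No result reversed. Of 1535 values of single elements under an alternative, 1520 kept direction and side of the threshold, 10 gained a call and 5 lost it. Alternatives restricted to CKIs with all times, without Midostaurin, or without Midostaurin, Apitolisib and TG100572, were added after seeing the data. Depth limits the low elements most: Cxcl9 +9.7 kb, Cxcl9 +15.6 kb and the Cxcl11 start in UT cells.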
